A study of Homo sapiens with 9 samples.

Results

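The subject is a set of 10 long noncoding RNA genes in HaCaT keratinocytes kept with or without small fragments of the plastic polystyrene (fPS). They are 2 genes of nuclear RNAs, NEAT1 and MALAT1, and 8 host genes of small nucleolar RNAs (snoRNAs), GAS5, SNHG1, SNHG5, SNHG6, SNHG8, SNHG12, SNHG15 and SNHG16. They were taken by symbol from the series' count table, as 10 of its 52402 gene symbols, and each stood on 1 row. HaCaT is an immortalised human keratinocyte line. All cells were grown in DMEM with fetal bovine serum and kept for 24 h in medium alone (control), with 25 µg/ml fPS (fPS 25) or with 100 µg/ml fPS (fPS 100). Each group had 3 libraries, made from poly(A)-selected RNA with a NEBNext Ultra II RNA kit. Whether replicates came from separate cultures is not stated, and the p-values cover the spread among these libraries, which may be technical.

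NEAT1 RNA is the scaffold of paraspeckles, nuclear bodies that hold a set of RNA-binding proteins, and MALAT1 RNA is an abundant RNA of nuclear speckles, where splicing factors gather. A snoRNA host gene carries snoRNAs in its introns. The snoRNAs are released after splicing and guide modification of ribosomal RNA, and the spliced remainder of many noncoding hosts is broken down by nonsense-mediated decay, which acts on RNAs during translation. Many host transcripts begin with a 5′ terminal oligopyrimidine tract, a C followed by further C or T letters, which makes translation of an mRNA depend on growth signals.

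The 9 libraries held 16.4M to 29.3M counts. Keratinocyte markers summed to 5562 to 5824 CPM (counts-per-million, scaled by TMM) in control, 4833 to 4972 in fPS 25 and 5267 to 8270 in fPS 100, with none of 8 at 0. In replicate 3 of fPS 100, the library with the highest sum, SFN alone had 5078 CPM, against 2046 ± 423 in control (SD, n = 3). From control to fPS 100, mean KRT5 fell from 2064 ± 141 to 1348 ± 99.2 CPM. TP63 went from 107 ± 10.2 to 143 ± 25.7 and ITGB4 from 582 ± 44.5 to 728 ± 91.0. Markers of fibroblasts, endothelium, leukocytes and melanocytes each summed to 19.8 CPM or less in every library. The leukocyte sum ran from 8.29 to 10 CPM in control and from 18 to 19.8 in fPS 100, nearly all of it CD68, a lysosomal protein gene, at 8.39 ± 0.737 and 18.8 ± 0.799 CPM (SD, n = 3). The other 4 leukocyte markers stood at 0.578 CPM or less in every library. Nuclear ribosomal RNA rows were at 0 in the 6 control and fPS 25 libraries and held 6.06%, 8.27% and 8.48% of counts in the fPS 100 libraries. This difference coincides fully with the group, so in every comparison with fPS 100 it cannot be told apart from the concentration. Replicate 3 of fPS 100 stood apart from the other fPS 100 libraries. Mitochondrial protein-coding RNA took 2.09% of its counts other than ribosomal RNA, against 5.34% and 4.62% in replicates 1 and 2. The member results it moves most are given with and without it.

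The RNA was selected by its poly(A) tails, so the 3′ ends of the 2 nuclear RNAs are shown first. The long NEAT1 isoform and MALAT1 are cut by RNase P before a tRNA-like fold and have no poly(A) tail. Both end in an A-rich tract that is written in the gene itself. The short NEAT1 isoform ends after a poly(A) signal. The 3 ends below are from GENCODE 29 on GRCh38, plus strand, 5′ to 3′, at chr11:65506017-65506116 for MALAT1, chr11:65445441-65445540 for long NEAT1 and chr11:65426454-65426513 for short NEAT1. Capitals mark the genomic A-rich tract in the first and second and the poly(A) signal AATAAA in the third.
MALAT1, last bases before the tRNA-like RNA: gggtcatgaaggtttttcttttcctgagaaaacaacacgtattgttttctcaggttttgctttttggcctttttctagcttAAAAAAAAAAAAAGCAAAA
NEAT1, long isoform: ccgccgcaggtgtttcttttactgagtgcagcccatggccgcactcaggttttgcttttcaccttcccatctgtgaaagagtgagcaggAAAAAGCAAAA
NEAT1, short isoform: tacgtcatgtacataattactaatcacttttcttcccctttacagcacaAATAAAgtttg

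Annotated transcripts of most of the host genes include starts with a feature that the choice of members did not use. A transcript start was searched, on the sense strand and at the first base only, for a C followed by at least 4 letters that are each C or T. Of the 8 host genes, 7 had at least 1 such transcript in GENCODE 29, and SNHG15 had none. Of the 122 annotated transcripts of the 8 genes, 20 began this way. These were 1 of 25 for SNHG1, 1 of 5 for SNHG8 and 3 of 5 for SNHG6, with the rest in the other genes. SNHG1-203, the 1 such transcript of SNHG1, starts at 62855479, inside the gene, whose 5′ end in RefSeq is at 62855885. GAS5-210 and SNHG12-202, printed below, also start inside their genes, at 173867989 and 28581873. The RefSeq 5′ ends of GAS5 and SNHG12 are at 173869045 and 28582983. NEAT1 and MALAT1 had no such transcript. Among genes tested here with at least 5 transcripts, 21.9% had such a start, and among the long noncoding ones 29.1%. Of all transcripts of genes tested here, 2.64% began this way, and of those of long noncoding genes 4.04%. These matches are letters in an annotated start and not a measured start site in HaCaT cells. One start for each host gene is shown, with the tract in capitals, GRCh38 and GENCODE 29, except for SNHG6, which is named only.
GAS5-210, chr1:173867962-173867989, minus strand: CTTTTCgaggtaggagtcgactcctgtg
SNHG1-203, chr11:62855452-62855479, minus strand: CTCCTgtctgcaggatttacgcgcacgt
SNHG5-202, chr6:85678706-85678733, minus strand: CTTTTacgtcggccttcgcgagcgtctg
SNHG8-205, chr4:118278758-118278785, plus strand: CTTTCacattcgggaagcgtcgggatta
SNHG12-202, chr1:28581846-28581873, minus strand: CCTTTCTCCCCgccgcattcccggtgtc
SNHG16-204, chr17:76557769-76557796, plus strand: CTTTTCgaggtcggccgcgtggctggaa

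At 100 µg/ml the nuclear RNAs rose and 4 host genes fell. NEAT1 was 3.0-fold and MALAT1 2.03-fold above control, and GAS5, SNHG1, SNHG5 and SNHG6 were 1.45-fold to 1.62-fold below it. SNHG8, SNHG12, SNHG15 and SNHG16 did not pass the test. In bulk RNA, fewer cells with a transcript and less of it per cell cannot be told apart. All 10 genes passed the filter on low counts, and 6 of them were called at an adjusted p under 0.05 with edgeR's quasi-likelihood test, 2 higher and 4 lower. Over all 14637 genes tested, 30.0% were called in this comparison, 15.2% higher and 14.8% lower. The median log2 fold change was -0.36 over the 10 genes and 0.01 over all genes. The libraries of fPS 100 and control did not overlap for 7 of the 10 genes, against 41.4% of all genes.

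**Figure D1:**
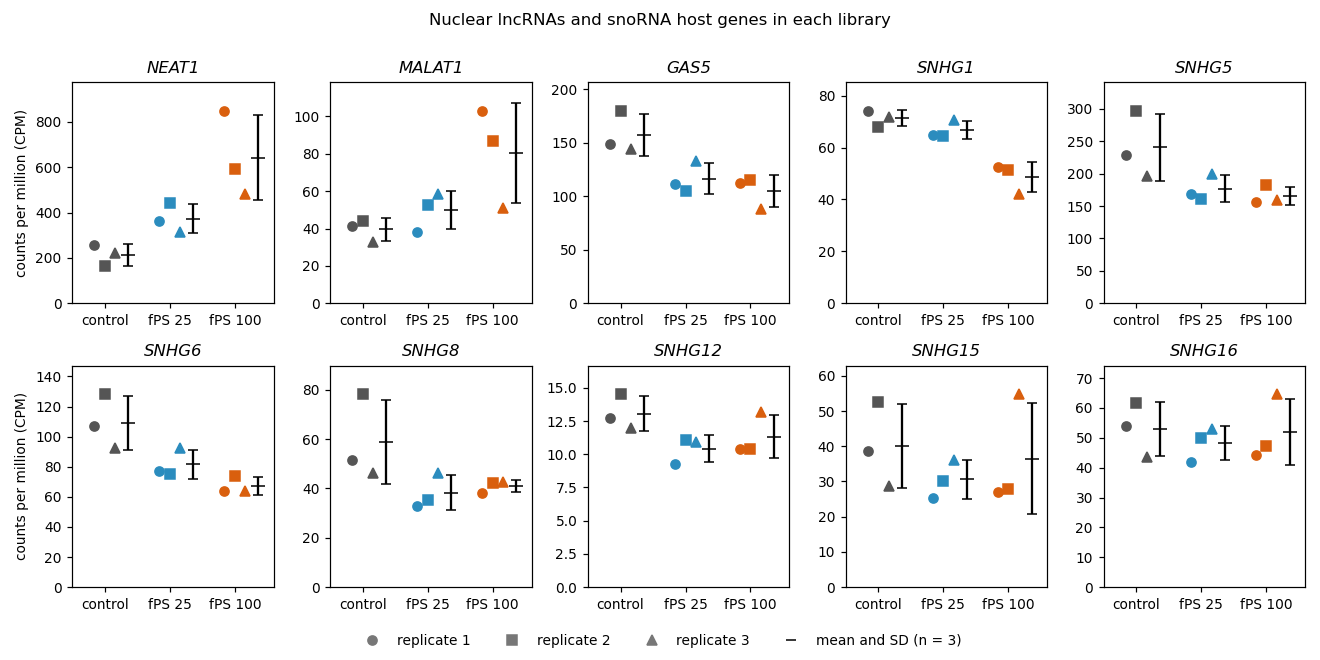
Each panel plots one gene, with the group on the x axis and TMM-scaled CPM on the y axis from 0. Symbols are single libraries and the black bar is the mean with its SD (n = 3). NEAT1 steps up from a mean of 214 in control to 374 in fPS 25 and 641 in fPS 100, and replicate 3 of fPS 100 is the highest library for SNHG15 and SNHG16.

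NEAT1 (chr11:65422774-65445540, plus strand, ENSG00000245532.8) showed the widest change of the 10. Its level was 258, 163 and 222 CPM in the control libraries, 362, 444 and 315 in fPS 25, and 849, 592 and 483 in fPS 100. The 3 groups did not overlap anywhere: every fPS 25 library lay above every control library, and every fPS 100 library above every fPS 25 library. The group means were 214 ± 48.2, 374 ± 65.6 and 641 ± 188 CPM (SD, n = 3). From control to fPS 100 the log2 fold change was 1.58 ± 0.22 (SE, adjusted p = 3.86e-04). It was 1.75 without replicate 3 of fPS 100 and 1.33 without replicate 1 of fPS 100. The row counts both isoforms together, so the short and the long form cannot be told apart.

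MALAT1 (chr11:65497688-65506516, plus strand, ENSG00000251562.8) lies 52147 bases beyond the end of NEAT1. Its own row stood at 41.6, 44.2 and 32.7 CPM in control, 38.4, 52.5 and 58.2 in fPS 25, and 103, 86.9 and 50.9 in fPS 100. Replicates 1 and 2 of fPS 100 were far above all other libraries, while replicate 3 lay within the range of fPS 25 and above all of control. The log2 fold change from control to fPS 100 was 1.02 ± 0.23 (SE, adjusted p = 0.00711), and 1.27 without replicate 3 of fPS 100. It was 0.80 without replicate 1 of fPS 100 (adjusted p = 0.0233) and 0.90 without replicate 3 of control (adjusted p = 0.0383).

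Most reads of the MALAT1 locus stood on another row. TALAM1, an RNA from the opposite strand in RefSeq (chr11:65499312-65507432), covers 82.1% of the span of MALAT1, and the labels state no strand setting for the counting. Reads of the pair therefore cannot be told apart. TALAM1 held 401, 364 and 363 CPM in control, 459.6, 554 and 584 in fPS 25, and 923, 698 and 498 in fPS 100, so the MALAT1 row had 7.71% to 11.1% of the counts of the locus. TALAM1 differed from control in the same direction, with a log2 fold change of 0.91 ± 0.18 (SE, adjusted p = 0.00367) at 100 µg/ml. With both rows summed, an alternative chosen after the data were seen, the locus rose by 0.92 ± 0.19 (SE, adjusted p = 0.00379). In fPS 100 it ran from 549 to 1026 CPM, against 395 to 443 in control.

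Of 7 other small RNAs without a poly(A) tail, picked after their values were seen, none was called higher at fPS 100 than in control. TERC was called lower, against 14.8% of all genes, at means of 1.02 CPM in control and 0.336 in fPS 100. At fPS 100 against fPS 25, RPPH1, SCARNA2 and TERC were called lower (adjusted p = 0.0380, 0.0215 and 0.0387), against 7.43% of all genes. No other of them was called there. RN7SK, a small nuclear RNA that restrains transcription elongation, had a mean of 82.3 ± 54.7 CPM in control, 151 ± 103 in fPS 25 and 34.2 ± 4.08 in fPS 100 (SD, n = 3). RPPH1, the RNA of RNase P, had 86.8 ± 60, 151 ± 102 and 20.5 ± 0.572 CPM. For both, fPS 25 replicate 1 was the highest library, and neither comparison of fPS 100 with control passed the test (adjusted p = 0.202 and 0.0594). Ribosomal RNA, also without such a tail, was counted in fPS 100 alone. Whether this arose in the RNA, the library or the counting was not tested. The part of carry-over of tailless RNA in the values of NEAT1 and MALAT1 was not tested. With ribosomal and mitochondrial rows left out of the scaling, the same 6 of the 10 genes were called.

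Most genes around the pair were not called. Within 200 kb of NEAT1 or MALAT1, 17 other genes were tested, of which 5 were higher and 1 lower at fPS 100 than in control. Over all genes tested, 30.0% were called in this comparison, 15.2% higher and 14.8% lower. KCNK7, FAM89B, SLC25A45, FRMD8 and LTBP3 were higher, by log2 fold changes of 0.80, 0.65, 0.86, 0.36 and 0.31. POLA2, a subunit of the polymerase that primes DNA replication, was lower, at -1.52 ± 0.09 (SE, adjusted p = 4.47e-06).

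Among the host genes, SNHG6 fell most. It hosts SNORD87 and is counted from a span that MCMDC2 crosses on the opposite strand, sharing 29.3% of the exonic bases of SNHG6, although MCMDC2 itself averaged 1.23 to 1.52 CPM per group. SNHG6 had 107, 128 and 92.5 CPM in control, 77.2, 75.1 and 92.2 in fPS 25, and 64.0, 73.8 and 63.9 in fPS 100. All fPS 100 libraries lay below all others. Its log2 fold change against control was -0.70 ± 0.13 (SE, adjusted p = 0.00208).

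GAS5 (chr1:173863900-173868882, minus strand, ENSG00000234741.7) hosts the longest series of snoRNAs among these genes, and its spliced RNA is known to accumulate when cell growth stops. It had 149, 180.2 and 144 CPM in control, 112, 105 and 133 in fPS 25, and 113, 115 and 88.1 in fPS 100. Every treated library at either concentration was below every control library. The log2 fold change at fPS 100 was -0.59 ± 0.13 (SE, adjusted p = 0.00658).

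SNHG1 (chr11:62851988-62855914, minus strand, ENSG00000255717.6), host of SNORD22 and SNORD25 to SNORD31, had the tightest values of the 10 in control. They were 74.2, 68.0 and 71.9 CPM, followed by 64.8, 64.4 and 70.6 in fPS 25 and 52.5, 51.3 and 42.2 in fPS 100. Control and fPS 25 overlapped, and fPS 100 lay below both. The log2 fold change at fPS 100 was -0.55 ± 0.10 (SE, adjusted p = 0.00180).

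SNHG5 (chr6:85660950-85678748, minus strand, ENSG00000203875.11), host of SNORD50A and SNORD50B, was the most abundant host by counts. It had 228, 297 and 196 CPM in control, 169, 161 and 200 in fPS 25, and 156, 182 and 160 in fPS 100. No fPS 100 library reached the lowest control library. The log2 fold change was -0.53 ± 0.15 (SE, adjusted p = 0.0171), but the call rested on single libraries. Without replicate 2 of control it was -0.35 (adjusted p = 0.0598), and without replicate 1 of fPS 100 it was -0.49 (adjusted p = 0.0530).

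SNHG8 (chr4:118278709-118279823, plus strand, ENSG00000269893.6), host of SNORA24, lay just outside the threshold. It had 51.6, 78.1 and 46.3 CPM in control, 33.0, 35.5 and 46.4 in fPS 25, and 38.2, 42.3 and 42.8 in fPS 100. Replicate 2 of control was the highest library, and fPS 100 lay below all of control. The log2 fold change was -0.51 ± 0.18 (SE, adjusted p = 0.0560). It passed the test under 5 of 23 alternatives, among them DESeq2 (adjusted p = 0.0302) and the fits without replicate 3 of control (adjusted p = 0.0208) or replicate 3 of fPS 25 (adjusted p = 0.0496). The log2 fold change was -0.25 without replicate 2 of control (adjusted p = 0.226) and -0.27 with the authors' log2 values (adjusted p = 0.290).

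The other 3 host genes did not pass the test, and their values moved with single libraries of both groups. SNHG15 (chr7:44983023-44986961, minus strand, ENSG00000232956.8), host of SNORA9, had 38.7, 52.7 and 28.8 CPM in control, 25.4, 30.1 and 36.2 in fPS 25, and 27.0, 27.8 and 54.7 in fPS 100. Replicate 3 of fPS 100 had about the level of the highest control library, and replicates 1 and 2 lay below all controls. With it the log2 fold change was -0.13 ± 0.29 (SE, adjusted p = 0.760), and without it -0.55 (adjusted p = 0.0679). Without replicate 2 of control it was 0.11. SNHG16 (chr17:76557766-76565348, plus strand, ENSG00000163597.14), host of the SNORD1 family, shares 30.6% of its exonic bases with AC015802.6 on the opposite strand. It had 44.1, 47.1 and 64.5 CPM in fPS 100 and 43.6 to 61.5 in control. The groups overlapped, with a log2 fold change of -0.03 ± 0.16 (SE, adjusted p = 0.907). It was -0.22 without replicate 3 of fPS 100 (adjusted p = 0.250) and 0.09 without replicate 2 of control. SNHG12 (chr1:28578538-28583132, minus strand, ENSG00000197989.14), host of SNORA16A, SNORA44, SNORA61 and SNORD99, had 10.4, 10.4 and 13.2 CPM in fPS 100 and 12 to 14.5 in control. Its log2 fold change was -0.20 ± 0.14 (SE, adjusted p = 0.300), with -0.33 when replicate 3 of fPS 100 was left out (adjusted p = 0.0602) and -0.12 when replicate 2 of control was.

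SNHG8, SNHG12, SNHG15 and SNHG16 were highest within their groups in replicate 2 of control and replicate 3 of fPS 100, SNHG8 by a narrow margin in the latter. In these libraries mitochondrial protein-coding RNA was lowest in its group, at 2.32% and 2.09% of counts other than ribosomal RNA, against 3.42% to 5.34% in the others of those groups. NEAT1 was lowest within its group in the same 2 libraries. Replicate 2 of control was also the highest control library for GAS5, SNHG5 and SNHG6, and the lowest for SNHG1. Without it, the log2 fold change at fPS 100 was -0.48 for GAS5 (adjusted p = 0.0249), -0.57 for SNHG6 (adjusted p = 0.00696) and -0.59 for SNHG1 (adjusted p = 0.00345). That of NEAT1 was 1.42 (adjusted p = 0.00193). The part of this library difference in the results was not tested.

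**Figure D2:**
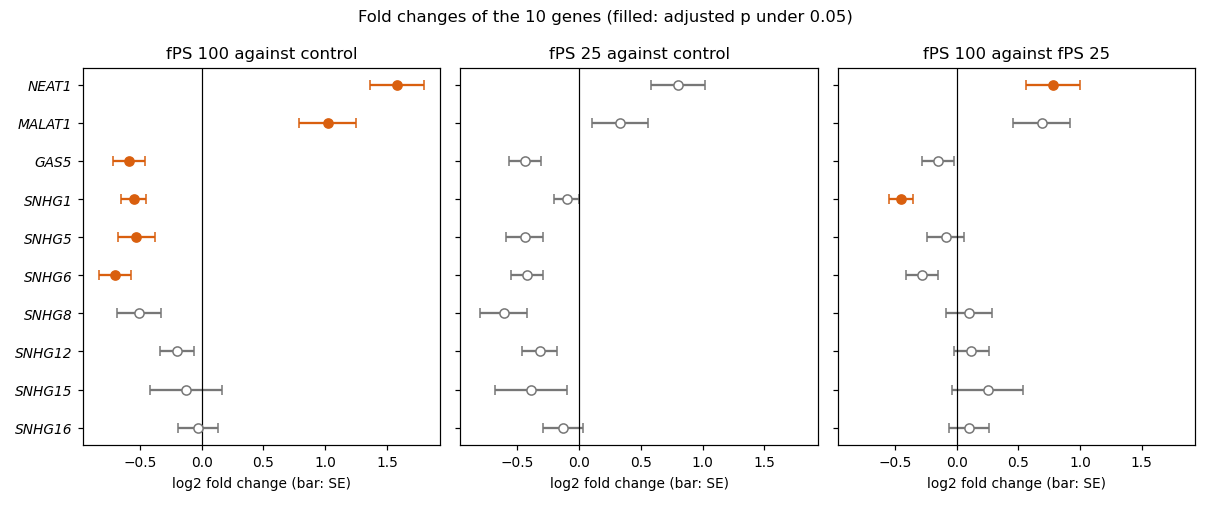
Each panel is one comparison, with the log2 fold change on the x axis and one gene per row, and bars show the SE (3 libraries per group). Filled points have an adjusted p under 0.05: 6 genes in fPS 100 against control, none in fPS 25 against control, and NEAT1 and SNHG1 in fPS 100 against fPS 25.

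At 25 µg/ml none of the 10 genes passed the test, against 5.25% of all genes called. With DESeq2, 4 were called, which were NEAT1, GAS5, SNHG6 and SNHG8, beside 1233 of all 14637 genes. The libraries of the groups did not overlap for NEAT1, GAS5, SNHG6 and SNHG12, which are 4 of the 10, against 33.5% of all genes. At an unadjusted p under 0.05 stood 6 of the 10 (NEAT1, GAS5, SNHG5, SNHG6, SNHG8 and SNHG12), against 20.7% of all genes. Leaving out replicate 3 of control brought 3 calls (SNHG5, SNHG6, SNHG8), beside 671 of all genes. Without replicate 3 of fPS 100 there were also 3 (NEAT1, GAS5, SNHG6), beside 1946. Without replicate 1 of fPS 100 there was 1 (NEAT1), beside 712. These fits tested 14916, 14931 and 14880 genes. NEAT1 came closest in the fit of all libraries, at a log2 fold change of 0.80 ± 0.22 (SE, adjusted p = 0.0577). The host genes lay at -0.61 ± 0.19 for SNHG8, -0.44 ± 0.13 for GAS5, -0.44 ± 0.15 for SNHG5 and -0.42 ± 0.13 for SNHG6, with adjusted p of 0.0848 to 0.109. Without replicate 2 of control, SNHG8 was at -0.34 and SNHG5 at -0.25 (adjusted p = 0.297 and 0.388). SNHG1, at -0.10 ± 0.10, and MALAT1, at 0.33 ± 0.23, had adjusted p of 0.612 and 0.455. TALAM1 had 0.50 ± 0.18 (SE, adjusted p = 0.147).

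The difference between the 2 concentrations was tested directly. NEAT1 was higher in fPS 100 than in fPS 25 by a log2 fold change of 0.78 ± 0.22 (SE, adjusted p = 0.0354). SNHG1 was lower, at -0.45 ± 0.10 (SE, adjusted p = 0.0111). These were 2 of the 10 genes, against 13.7% of all genes called, 6.31% higher and 7.43% lower. Libraries did not overlap for NEAT1, SNHG1 and SNHG6, 3 of the 10, against 35.1% of all genes, and 28.5% of all genes stood at an unadjusted p under 0.05. MALAT1 differed by 0.69 ± 0.23 (SE, adjusted p = 0.0741), and by 0.93 without replicate 3 of fPS 100 (adjusted p = 0.00359). It was also called with DESeq2 and without a filter on low counts, while the locus with TALAM1 summed differed by 0.43 (adjusted p = 0.152). GAS5, SNHG5 and SNHG8 differed by -0.15 ± 0.13, -0.09 ± 0.15 and 0.10 ± 0.19, with adjusted p from 0.505 to 0.777. The NEAT1 call ended under 8 of 23 alternatives, with adjusted p from 0.0507 to 0.134, among them the fits without replicate 3 of control, any replicate of fPS 25 or replicate 1 or 2 of fPS 100, and the SNHG1 call ended without replicate 3 of fPS 25 (adjusted p = 0.0545). The comparisons share libraries, so their values are set side by side and not counted as separate evidence.

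**Figure D3:**
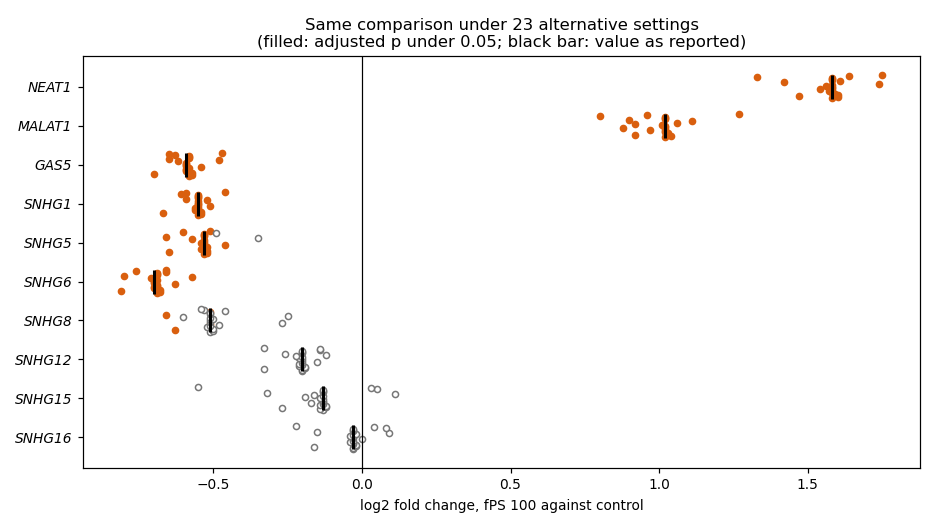
Rows are the 10 genes and the x axis is the log2 fold change of fPS 100 against control under 23 other settings of scaling, filtering, test and left-out library, with filled points at an adjusted p under 0.05. NEAT1 stays between 1.33 and 1.75 and SNHG6 between -0.81 and -0.57 in all of them, while SNHG15 runs from -0.55 to 0.11.

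Levels of different genes were compared on the authors' log2 values, which are scaled for gene length. SNHG5 had the highest level per length in every group, at 9.06 ± 0.26 in control, 8.72 ± 0.15 in fPS 25 and 8.60 ± 0.13 in fPS 100 (mean log2 value, SD, n = 3). SNHG6 and GAS5 followed in control at 8.08 ± 0.19 and 8.04 ± 0.13 and did not differ beyond their spread. Then came SNHG8 at 7.44 ± 0.37, SNHG1 at 5.92 ± 0.09, SNHG15 at 5.62 ± 0.40 and NEAT1 at 5.46 ± 0.37. The control libraries of SNHG15 overlapped those of SNHG1 and of NEAT1, while all of SNHG1 lay above all of NEAT1. SNHG16 at 4.26 ± 0.22 and SNHG12 at 4.23 ± 0.10 did not differ beyond their spread. The MALAT1 row was lowest, at 2.56 ± 0.18, for the reads not listed under TALAM1.

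NEAT1 rose and SNHG1 fell furthest in this order. NEAT1 went from rank 7 in control to rank 5 in both treated groups, at 6.27 ± 0.25 in fPS 25 and 7.01 ± 0.37 in fPS 100. The mean of SNHG8 in fPS 100, at 7.16 ± 0.06, lay within the spread of NEAT1. SNHG1 went from rank 5 in control to rank 6 in fPS 25 and rank 7 in fPS 100. In fPS 100, GAS5 at 7.50 ± 0.26 stood above SNHG6 at 7.45 ± 0.14, and SNHG15 at 5.49 ± 0.53 above SNHG1 at 5.41 ± 0.20, the reverse of their order in the other groups, but neither pair differed beyond its spread. How the authors set a gene's length is not stated. Read as RPKM after adding 1, their values with the deposited counts imply a length of 4237 to 5124 bases for NEAT1 across libraries. Its annotated exons cover 22767 bases in GENCODE 29, so its level per length rests on the shorter length. The implied length was also shorter for every host gene, with 398 to 461 of 2806 exonic bases for SNHG5 and 536 to 620 of 3631 for GAS5. For MALAT1 it was 7079 to 8317 of 8829. The order of the genes therefore depends on the lengths that the authors used.

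**Figure D4:**
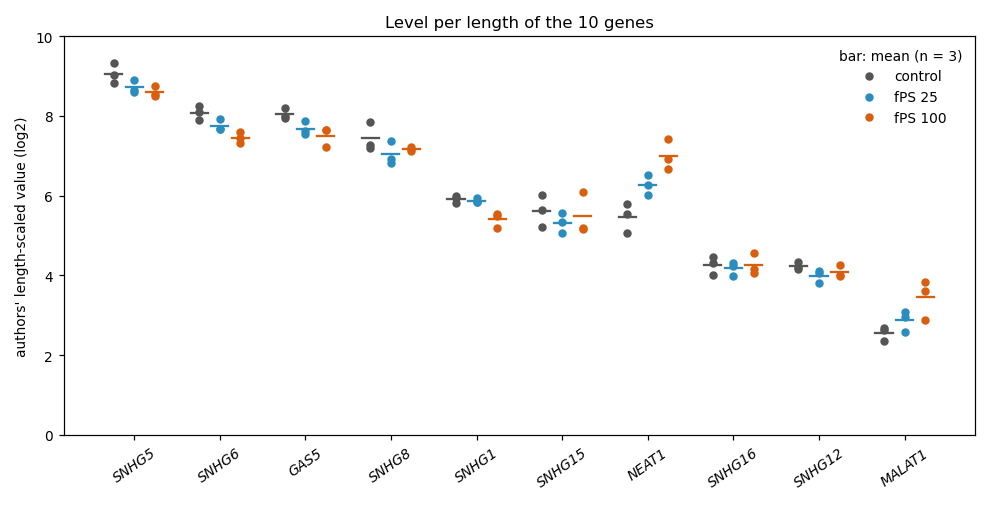
The y axis is the authors' length-scaled log2 value and the x axis lists the 10 genes in the order of their control mean. Points are single libraries and bars are group means (n = 3). SNHG5 is highest at 8.60 to 9.06 by group mean, MALAT1 lowest at 2.56 to 3.45, and NEAT1 climbs from 5.46 to 7.01.

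The make-up of the set differed between groups. NEAT1 took 15% to 25.4% of the counts of the 10 genes in control, 31.0% to 43.2% in fPS 25 and 45.4% to 58.3% in fPS 100, with no overlap. The 8 host genes together had 635 to 879.5 CPM in control, 532 to 642 in fPS 25 and 505 to 549.8 in fPS 100. The ratio of NEAT1 counts to MALAT1 counts was 3.68 to 6.79 in control, 5.41 to 9.44 in fPS 25 and 6.82 to 9.48 in fPS 100, and the fPS 25 libraries overlapped both other groups.

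The snoRNAs inside the host genes were nearly out of reach of these libraries. All 30 that were looked up have a row, 7 had no count in any library, and 2 had at least 10 counts in any library. SNORD22, in SNHG1, had 20, 34 and 33 counts in control, 40, 37 and 29 in fPS 25, and 7, 11 and 17 in fPS 100. The fPS 100 libraries were lowest, with a log2 fold change of -1.35 ± 0.37 against control (SE, adjusted p = 0.0173). SNORA24, in SNHG8, had 2, 7 and 17 counts in control, 11, 7 and 3 in fPS 25, and 2, 2 and 2 in fPS 100, and was not tested. Both overlap exons of their hosts in GENCODE 29, so reads of host and snoRNA cannot be told apart.

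Other noncoding host genes were split in direction. Of 16 tested, 5 fell and 1 rose at fPS 100, and their median log2 fold change was 0.06. Over all genes, 14.8% were called lower and 15.2% higher in this comparison. EPB41L4A-AS1, host of SNORA13, fell from 41.1 ± 12 CPM in control to 18.2 ± 1.64 in fPS 25 and 22.0 ± 3.98 in fPS 100 (SD, n = 3), and was called at both concentrations, at log2 fold changes of -1.17 ± 0.19 (SE, adjusted p = 0.00790) and -0.90 ± 0.19 (SE, adjusted p = 0.00461). DANCR, known for holding epidermal progenitors undifferentiated, fell at fPS 100 by 0.49 on the log2 scale and was at -0.02 ± 0.10 at fPS 25. SNHG7, LRRC75A-AS1 and ZFAS1 also fell, by 0.58, 0.41 and 0.38. SNHG19 rose by 0.67 ± 0.16 (SE, adjusted p = 0.00759).

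Protein-coding host genes, many of them ribosomal protein genes, mostly did not pass the test. Of 30 tested, 3 rose (EIF4A2, RPL10, TPT1) and 3 fell (RCC1, HSPA8, TAF1D) at fPS 100, with a median of -0.12. Over all genes, 15.2% were called higher and 14.8% lower. EIF4A2, a translation helicase, rose at both concentrations, by 0.71 ± 0.09 at fPS 100 (SE, adjusted p = 1.86e-04) and 0.39 ± 0.09 at fPS 25 (SE, adjusted p = 0.0302). RCC1, the exchange factor of Ran and a neighbour of the SNHG3 locus, fell by 0.51 at fPS 100.

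Among factors of nonsense-mediated decay, the path that breaks down many spliced host RNAs, 6 of 14 fell and 1 rose at fPS 100, with a median of -0.28. Over all genes, 14.8% were called lower and 15.2% higher there. At fPS 25, 4 of the 14 factors fell and none rose, against 2.25% of all genes called lower. UPF3B, which links the exon junction complex to UPF2, had 59.4, 74.9 and 60.1 CPM in control, 41.3, 40.4 and 42.7 in fPS 25, and 28.3, 27.3 and 26.1 in fPS 100. The 3 groups did not overlap, and the log2 fold change against control was -1.25 ± 0.10 at fPS 100 (SE, adjusted p = 1.56e-05) and -0.64 ± 0.10 at fPS 25 (SE, adjusted p = 0.00638). SMG9, CASC3 and UPF2 also fell at both concentrations, by 0.84, 0.71 and 0.69 at fPS 100. UPF3A and MAGOH fell at fPS 100, while SMG8, a partner of SMG9, rose by 0.29. UPF1, the central helicase of the pathway, was at -0.16 (adjusted p = 0.266).

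Of 14 paraspeckle protein genes tested, which encode partners of NEAT1, 3 fell at fPS 100 (NUDT21, CPSF7, EWSR1) and 1 rose (CPSF6), with a median of -0.16. This count of 4 lies near the 30.0% of all genes called in the comparison. NUDT21 and CPSF7, subunits of a complex that guides choice of the poly(A) site, together with CPSF6, were at -0.47 ± 0.09 (SE, adjusted p = 0.00223) and -0.49 ± 0.09 (SE, adjusted p = 0.00168), and CPSF6 at 0.23 ± 0.07 (SE, adjusted p = 0.0374). CPSF6 was also higher at fPS 25, by 0.32 ± 0.07 (SE, adjusted p = 0.0344). NONO and SFPQ, the core paraspeckle proteins, were at -0.21 and 0.13 and did not pass the test. Of 15 nuclear speckle genes, SRSF5 and PNN rose, TRA2B fell, and the median was -0.05.

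The next list held 12 genes of tRNA-like processing, which are protein subunits of RNase P, many of them shared with the related RNase MRP, the tRNA 3′-end nuclease ELAC2 and TRNT1, which adds CCA to tRNA ends. RNase P cuts the 3′ ends of MALAT1 and long NEAT1 printed above. Of the 12, RPP30, RPP40 and POP7 fell at fPS 100 and none rose, with a median of -0.11. Over all genes, 14.8% were called lower and 15.2% higher at fPS 100. RPP30 had 65.5, 75.5 and 64.2 CPM in control, 53.3, 55.8 and 60.1 in fPS 25, and 41.2, 39.9 and 40.2 in fPS 100, without overlap. Of 12 snoRNP protein genes, RUVBL2 and PIH1D1 fell and ZNHIT6 rose, with a median of -0.14. Of 15 other long noncoding RNAs, MIR17HG, TINCR and UCA1 rose and none fell, with a median of 0.10. TINCR, an RNA of differentiating keratinocytes, rose by 0.79 ± 0.24 (SE, adjusted p = 0.0273).

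**Figure D5:**
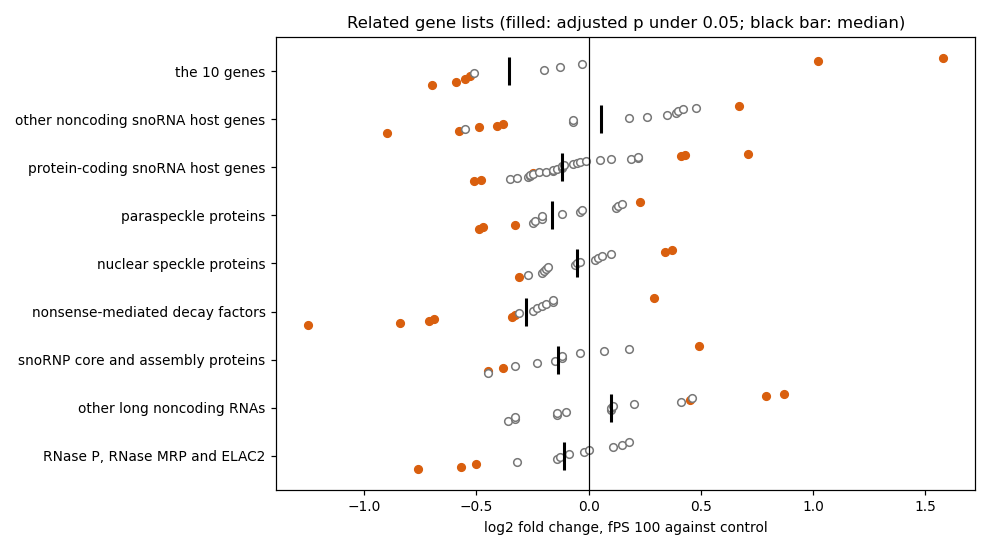
Each row is a list of related genes, each point a gene, and the x axis the log2 fold change of fPS 100 against control; filled points have an adjusted p under 0.05 and black bars are list medians. NEAT1 at 1.58 and UPF3B at -1.25 are the outermost points, and the list medians lie between -0.36 for the 10 genes and 0.10 for other long noncoding RNAs.

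For each member the 2 genes with the most similar course over the 9 libraries were taken, by the root mean square difference of centred log2(CPM + 1), from 8504 genes. SH3D21 and ATP9A were nearest to NEAT1, both at 0.21, where NEAT1 itself varied by 0.70 about its mean. SH3D21 had 5.91, 5.00 and 5.98 CPM in control, 10.2, 11.1 and 9.56 in fPS 25, and 23.5, 16.2 and 19.8 in fPS 100. CYSRT1 and TALAM1 were nearest to MALAT1, at 0.14 and 0.17. GAS5 ran closest to ZDHHC4 and to DDIT3, the stress-induced transcription factor CHOP, both at 0.09, and DDIT3 fell from 71.2 ± 11.1 to 49.4 ± 6.33 CPM at fPS 100 (SD, n = 3).

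Within the set, SNHG5 and SNHG6 were nearest to each other, at 0.09, and SNHG12 and SNHG16 to each other, at 0.12. MALAT1 was the nearest member to NEAT1, at 0.41. C12orf57 and MBD3 were nearest to SNHG5, at 0.04 and 0.07, and IMPA2 and ILVBL to SNHG6, both at 0.07. KATNAL1 and CTNNAL1 were nearest to SNHG1, both at 0.06. C17orf49 and NAA38 were nearest to SNHG8, ATG4D and YKT6 to SNHG12, DNLZ and MYDGF to SNHG15, and C19orf24 and C20orf24 to SNHG16, at 0.05 to 0.13. These distances describe the 9 libraries and carry no test.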

How the data were processed

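RNA of 9 HaCaT libraries in 3 groups was measured by sequencing after poly(A) selection, per the labels' protocols. The authors deposited a table of read counts, whole numbers per gene row with no normalization, and 9 files of log2 values, which grow with depth and shrink with gene length. Their kind of scaling is not stated, and that they are taken after adding 1 was read from the values. Reads were handled with bcl2fastq and GRCh38.p14, per the submitters' processing notes, while aligner, counter, annotation and strand setting were not given in the sources used here.

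Rows of a symbol were summed, giving 52402 symbols from 58173 rows. With edgeR 4.0.16 in R 4.3.3, filterByExpr (10 counts, 15 in total) kept 14637 genes. After TMM scaling, 1 robust quasi-likelihood model by group held all 9 libraries, and a gene was called at a Benjamini-Hochberg adjusted p under 0.05 over all genes (2-sided). Each SE is the size of the log2 fold change divided by the root of its F statistic. The procedure was checked on simulated data. Reads carried no stated molecular identifiers, so counts may include copies of the same molecule.

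Alternatives were RLE, upper-quartile and total-count scaling, TMM without ribosomal and mitochondrial rows, other filters on low counts, a non-robust fit, limma-voom (limma 3.58.1), DESeq2 1.42.0, the authors' log2 values, the largest row of a symbol, only the compared groups, a replicate block, and each library left out in turn. Summing MALAT1 with TALAM1 was added after the data were seen. The members, gene lists and tests were chosen with earlier results of these data known. Named genes were all members, at most 4 of each list and comparison with the smallest adjusted p, the 2 genes of nearest course for each member, and snoRNAs with at least 10 counts. NONO, SFPQ, UPF1, the remaining called members of lists, neighbours of NEAT1 and tailless RNAs were chosen after their values were seen. Sequences are from GENCODE 29 transcripts (GRCh38), and TALAM1 positions from RefSeq (GRCh38.p14).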

Additional observations from a re-analysis of the deposited data

How the results depend on the processing

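At fPS 100 against control, 5 to 7 of the 10 genes were called in every alternative. NEAT1, MALAT1, GAS5, SNHG1 and SNHG6 were called in all 23. Without a filter on low counts, the SE there was 0.12 for each of GAS5, SNHG1, SNHG5, SNHG6, SNHG8 and SNHG16. In the main fit, theirs ran from 0.10 for SNHG1 to 0.18 for SNHG8. The unfiltered fit thus did not follow each gene's own spread as the main fit did, and its calls are less cautious. At fPS 25 against control the count of 0 became 5 without a filter on low counts, 4 with DESeq2 and 2 with only the compared groups, and 0 to 3 with a library left out (3 without replicate 3 of control or of fPS 100, 1 without replicate 1 of fPS 100). At fPS 100 against fPS 25 the count of 2 became 1 with the authors' log2 values, 3 with DESeq2 or without a filter (both adding MALAT1), and 0 to 3 with a library left out. With total-count scaling SNHG6 was called in place of NEAT1. Without fPS 25 replicate 3 it was 0, and NEAT1 lost its call also without control replicate 3, fPS 25 replicate 1 or 2, or fPS 100 replicate 1 or 2. Signs turned for genes that were never called there. With a library left out, SNHG15 ran from -0.55 to 0.11 and SNHG16 from -0.22 to 0.09 at fPS 100 against control, both above 0 without control replicate 2 or fPS 100 replicate 1 or 2. At fPS 100 against fPS 25, SNHG5 reached 0.01 without fPS 25 replicate 3; it ran from -0.16. SNHG12 ran from -0.01 to 0.18, SNHG15 from -0.16 to 0.43 and SNHG16 from -0.09 to 0.21, lowest without fPS 100 replicate 3. With total-count scaling SNHG8 was -0.03, SNHG12 -0.01 and SNHG16 -0.03. That scaling moved the median of all genes to -0.11 in both comparisons with fPS 100. Its calls were 1438 higher and 3329 lower against control, beside 2225 and 2168 with TMM, and 572 and 1951 against fPS 25, beside 924 and 1088. The cause of these changes was not tested.

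Of all genes, 768 were called at fPS 25 against control, and 1237 without a filter, 1233 with DESeq2, 1511 with only the compared groups and 135 to 1946 with a library left out (389 and 250 without control replicate 1 or 2, 222, 135 and 225 without fPS 25 replicate 1, 2 or 3, and 1946 without fPS 100 replicate 3). At fPS 100 against fPS 25, 2012 were called, and 1018 to 2706 with a library left out (1095, 1018 and 1246 without fPS 25 replicate 1, 2 or 3). Deviations of log2 CPM from the group mean correlated at -0.39 to 0.03 between same-numbered libraries of different groups. Between libraries with different numbers they correlated at -0.30 to 0.27. With 3 libraries per group, these values cannot settle whether the numbers mark pairs. With the replicate block 6, 0 and 2 of the 10 genes were called in the 3 comparisons, and 3510, 318 and 1399 of all genes, beside 4393, 768 and 2012 without it.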
